A study of Oryza sativa Japonica Group and Oryza sativa Indica Group with 24 samples.

Results

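Gene expression in unstressed rice was compared between agami plus the second ir29-labelled set, on one side, and m103 with the first such set on the other. The members were the control arrays of these 4 sets, chosen by their titles, 6 on each side, which is 12 of the 24 arrays of the series. The study measured total RNA in the crown and growing point, the tissue around the shoot meristem, at panicle initiation, with and without salt. Each array is an Affymetrix rice array hybridised with biotin-labelled RNA of 1 sample.

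The agami controls (title numbers 13 to 15) come from a tolerant japonica cultivar in the series text, and the m103 controls (1 to 3) from a sensitive one. The controls numbered 7 to 9 and 19 to 21 are both titled ir29, a sensitive indica in the series text. That text also names a tolerant indica, ir63731, which no title carries. The ir29-labelled arrays are therefore called the first and the second set here, with no tolerance class. All 4 groups were unstressed and had 3 arrays each, called biological replicates in their titles. A description label calls every sample of the series unstressed, while the titles separate control from salt, and the titles were followed. The sources used here do not give how many plants made up a sample. Only 2 sets stand on each side, so p-values measure mainly the spread between arrays and do not measure the spread between cultivars. In the fit of both pairs together, any disagreement between the 2 pairs also adds to the residual spread.

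Rice keeps sodium out of its shoot largely by membrane transporters, among them HKT1;5, which takes sodium back from the xylem sap. Small heat shock proteins bind unfolding proteins, and the Clp/HSP100 chaperones pull aggregated proteins apart. Heat shock factors are the transcription factors that switch on genes of both kinds. Young leaf bases around the meristem turn green as chlorophyll synthesis, the light-harvesting proteins and Rubisco build up.

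The signals are intensities scaled so that each array had the same trimmed mean, 500, and differences are on the scale of log2(scaled signal + 16). A difference is agami and second ir29-labelled set minus m103 and first ir29-labelled set, with its standard error from limma. A probe set was called when the limma adjusted p was under 0.05 and both pairs of sets differed in the same direction. Of the 12 control arrays, 5 (all of m103 and 2 first-set arrays) had been deposited at a trimmed mean between 58.8 and 115.7, and the other 7 at 500. The deposited scale and the comparison therefore cannot be told apart for m103. The ratio of 3′ to 5′ signal for actin, a measure of RNA quality, ran from 4.11 to 7.37 in the control arrays, with both sides overlapping. In the salt arrays it was 6.77, 10.1 and 9.34 in the second ir29-labelled set and 4.52 to 6.72 in the other sets. The part of RNA quality in the salt differences was not tested. OSH1, a homeobox gene of the shoot meristem, was bright in all 4 groups, with mean control signals of 4470 (m103), 5919 (agami), 1339 (first set) and 2157 (second set).

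The sodium transporter gene HKT1;5 (gene 4327757) was higher in the agami and second-set controls than in their counterparts. Its scaled signal was 341, 299 and 326 in the m103 arrays and 512, 891 and 793 in the agami arrays. It was 258, 414 and 380.2 in the first ir29-labelled set and 638, 754 and 907 in the second. All 6 arrays of one side lay above all 6 of the other. The difference was 1.11 ± 0.15 (limma adjusted p = 0.0012), with 1.11 in the japonica pair and 1.11 in the ir29-labelled pair. The salt arrays, which the comparison did not use, gave 1.0 ± 0.20 (limma adjusted p = 0.0045). In the salt arrays that were deposited at 500, the difference was 1.58 between agami and m103 and 0.25 between the ir29-labelled sets (limma adjusted p = 0.091), where m103 and the first set had 1 array each.

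Among 30 tested genes for potassium, sodium and proton transport, 2 were called higher and 1 lower, or 4 lower without agami replicate 1 and 1 higher without any 1 of 6 other arrays. Over all 2273 tested genes with a name, 11.7% were called, 5.02% higher and 6.64% lower. HAK2, of a family of potassium transporters, was the other higher gene (0.34 ± 0.094, limma adjusted p = 0.040), a call that ended when any 1 of 8 arrays was left out. In its brightest probe set CCC1, a cation and chloride cotransporter, was lower by a small but tight margin. Its signal was 2921, 2987 and 2927 in m103 against 2327, 2337 and 2399 in agami, and 3188, 3058 and 3037 in the first against 2736, 2460 and 2439 in the second ir29-labelled set. All 6 arrays of one side lay below all 6 of the other (difference -0.30 ± 0.057, limma adjusted p = 0.0071). A second probe set of CCC1 gave -0.55 (limma adjusted p = 0.69), with -2.75 in the japonica and 1.66 in the ir29-labelled pair. Relative to the median of all probe sets on the unscaled deposited values CCC1 turned to 0.057, and in the scaled salt arrays it gave 0.11 (limma adjusted p = 0.32). The median difference of the list was -0.05, against -0.01 over all named genes.

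**Figure D1:**
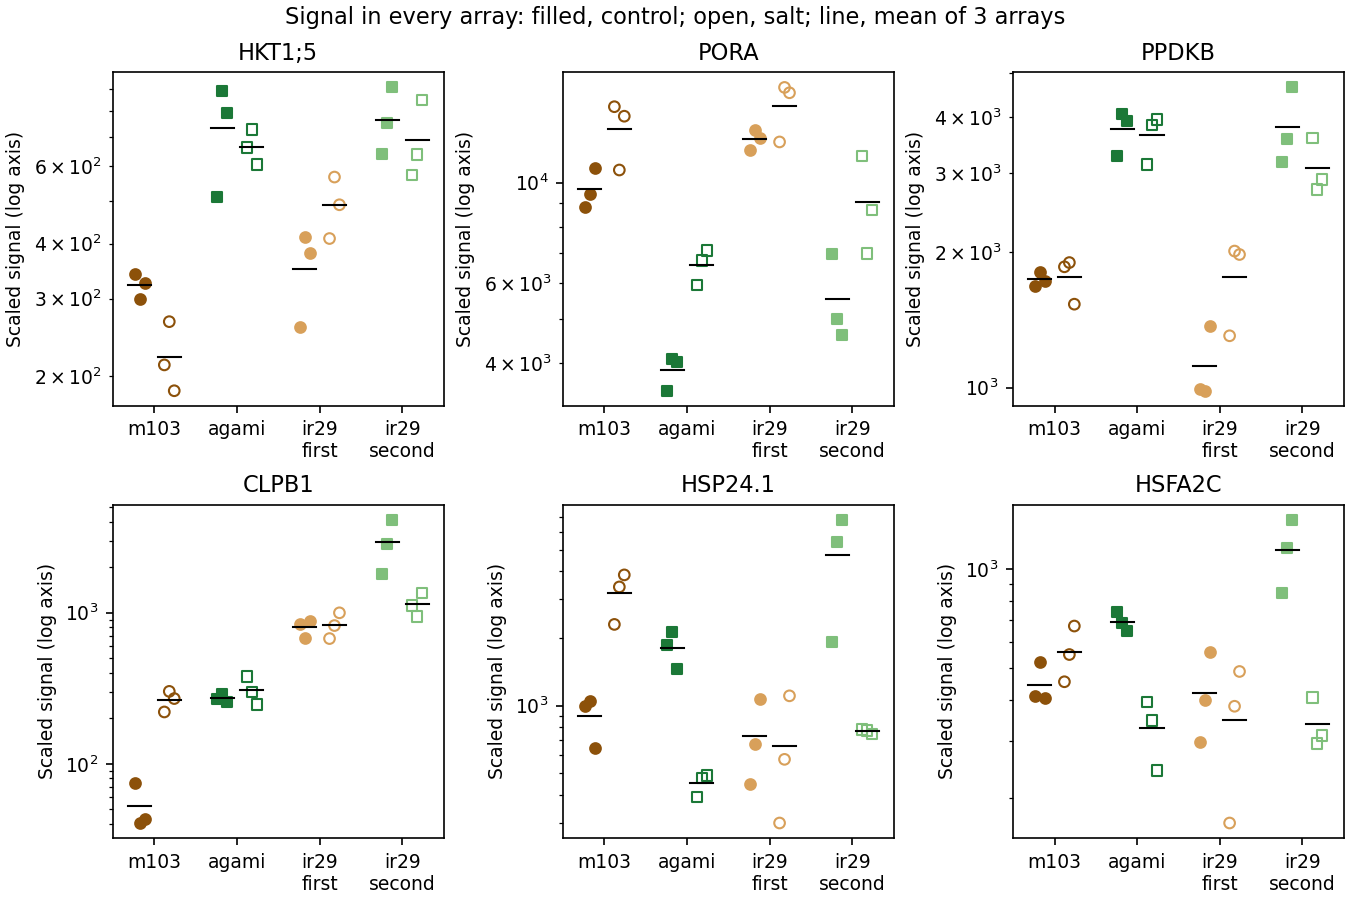
Scaled signal on a log axis in every array of the 4 sets for 6 genes; filled symbols are control arrays, open symbols salt arrays and lines means of 3 arrays. The control arrays of agami and the second ir29-labelled set lie above m103 and the first set for HKT1;5, PPDKB, HSP24.1 and HSFA2C and below them for PORA, while for CLPB1 this holds within each pair of sets.

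Of the 6 largest higher differences among named genes with arrays apart in both pairs, 5 belonged to heat shock genes. Over all named genes, 5.02% were called higher and 6.64% lower. Of 28 tested heat shock proteins, 7 were called higher and 1 lower, and of 20 heat shock factors, 5 were called higher and none lower. Their median differences were 0.27 and 0.15. HSP18.6, HSP18.0, HSP24.1, HSP17.9A and HSP17.7 are small heat shock proteins, and CLPB1 and CLPB3 are disaggregating chaperones. The gene called lower was CLPC1, a chaperone of the Clp protease in the chloroplast in Arabidopsis (-0.41 ± 0.058, limma adjusted p = 0.0013).

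CLPB1 (gene 4339343) had a signal of 74.3, 40.6 and 42.8 in m103 and 267, 291 and 255 in agami. In the first ir29-labelled set it was 845, 682 and 886, and in the second 1807, 2854 and 4132. The arrays did not overlap within either pair, although agami lay below the first ir29-labelled set. The difference was 1.94 ± 0.19 (limma adjusted p = 7.6e-05), called separately in both pairs (2.1 and 1.77). CLPB3 gave a smaller difference of 0.64 ± 0.13 (limma adjusted p = 0.0097), with all 6 arrays of one side above all 6 of the other.

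HSP18.6 (gene 4330933) showed the largest difference of a named gene that kept its arrays apart in both pairs. Its signal was 751, 618 and 386 in m103 and 1963, 1860 and 1415 in agami. It was 282, 529 and 533 in the first ir29-labelled set and 2552, 9996 and 10526 in the second. All 6 arrays of one side lay above all 6 of the other, while the second set itself spread widely. The difference was 2.72 ± 0.44 (limma adjusted p = 0.0031), and another probe set of the gene gave 2.86.

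HSP24.1 (gene 4330786) ran from 644 to 1047 in m103, 1453 to 2145 in agami, 448 to 1069 in the first ir29-labelled set and 1933 to 6800 in the second. Both sides were again apart, with a difference of 1.79 ± 0.35 (limma adjusted p = 0.0086). For HSP17.9A, the difference was 1.77 ± 0.26 (limma adjusted p = 0.0018) and the second ir29-labelled set reached 13743 ± 5052 (SD, n = 3) against 2307 ± 494 in the first. In HSP18.6, HSP24.1 and HSP17.9A the first replicate of the second set was the lowest of its 3 arrays, and its actin ratio was 4.11 against 6.65 and 7.37 in the other two; the part of RNA quality in these differences was not tested. HSP18.0 rested on the ir29-labelled pair (3.99, against 0.42 between agami and m103), and its call ended when any 1 of 7 arrays was left out. Its other probe sets gave 0.13 and -1.18, the latter with -3.08 in the ir29-labelled and 0.72 in the japonica pair. HSP17.7 differed least (0.43 ± 0.087, limma adjusted p = 0.011).

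The heat shock factors called higher were HSFB2B (1.14), HSFA2C (1.03), HSFB2C (0.56), HSFB2A (0.54) and HSFA2E (0.36). The calls of HSFB2B and HSFB2A ended when any 1 of 9 and of 8 arrays, respectively, was left out. HSFA2C had a signal of 409, 519 and 404 in m103 and 739, 687 and 647 in agami. It was 298, 399.7 and 557 in the first ir29-labelled set and 846, 1158 and 1414 in the second, so that both sides were apart. Its difference was 1.03 ± 0.19 (limma adjusted p = 0.0062), but a second, dimmer probe set of the gene gave -0.06. The number of heat shock factors called was 3 instead of 5 without any 1 of the 3 first-set arrays, replicate 2 or 3 of the second set, or m103 replicate 3. With the first ir29-labelled set represented by its array deposited at 500 alone, 5 heat shock proteins and 2 heat shock factors were called higher.

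In the salt arrays, 1 of the 28 heat shock proteins was called higher and 3 lower, and 1 of the 20 factors each way, against 6.34% of all probe sets called higher and 8.04% lower, so that these counts lie near the share of all probe sets. The list medians in the salt arrays were 0.03 and -0.01. The control and the salt contrast were therefore tested against each other on all 24 arrays, a step added after the data were seen. This difference was called in 4.39% of probe sets, 2.38% with the control contrast above the salt contrast and 2.01% below it. It was called in 7 heat shock proteins and 3 heat shock factors, all with the control contrast above. CLPB1, CLPB3, HSP24.1, HSP17.9A, HSFA2C, HSFA2E and HSFB2B were among them, and HSP81-1, HSP17.4 and HSP16.9A were the others. The test reuses the control arrays by which the heat shock genes were singled out as higher. That favours a control contrast above the salt contrast. Nothing is therefore read from the shared direction, and the gaps of genes picked in this way may be overstated.

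HSP24.1 gave the largest such gap among the genes named here, 2.97 ± 0.39 (limma adjusted p = 0.0001). Its salt signal was 3187 ± 791 (SD, n = 3) in m103, 451 ± 52.9 in agami, with 661 ± 411 and 768 ± 18.2 in the first and second ir29-labelled sets. CLPB1 in the salt arrays was 264 ± 41.0 in m103 and 308 ± 66.8 in agami, and 832 ± 162 and 1137 ± 206 in the ir29-labelled sets, a difference of 0.32 (limma adjusted p = 0.16). For HSFA2C the salt difference was -0.34 (limma adjusted p = 0.40), and the gap between the contrasts was 1.36 ± 0.28 (limma adjusted p = 0.0060). HSP18.6 under salt differed in the ir29-labelled pair alone (3.19, against -0.02 between agami and m103), and HSP17.7 was the heat shock protein called higher there (0.50).

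U2AF35A, the small subunit of a splicing factor that recognises the end of introns, was also higher in the control arrays. It ran from 1695 to 2007 in m103, 2944 to 4417 in agami, 1766 to 2474 in the first ir29-labelled set and 3203 to 5201 in the second, with both sides apart. The difference was 0.97 in the japonica and 1.02 in the ir29-labelled pair (limma adjusted p = 0.00084 for both together) and 0.10 in salt arrays. The gap between the control and the salt contrast was called (0.89 ± 0.20, limma adjusted p = 0.013). This gene, too, was picked by its control difference, so the gap may be overstated.

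**Figure D2:**
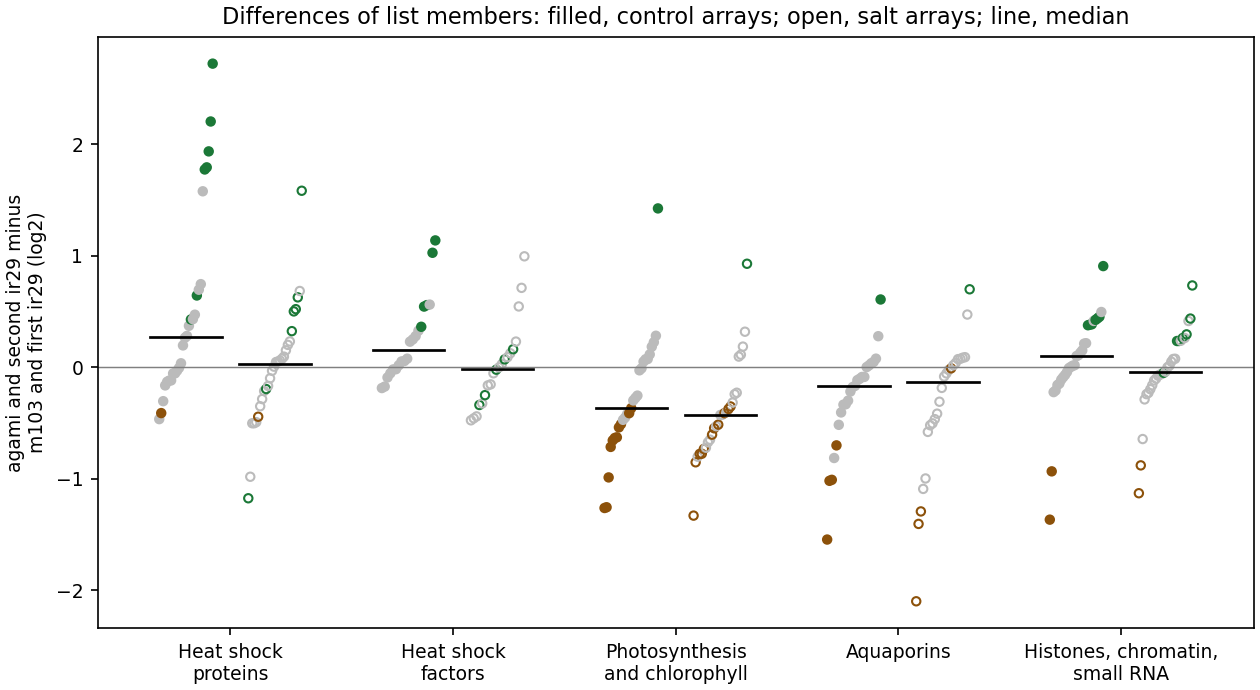
Each point is the log2 difference of 1 gene of a list, agami and second ir29-labelled set minus m103 and first set, in control arrays (filled) and salt arrays (open), with the list median as a line; colour marks genes called higher (green) or lower (brown) in the control arrays. The median of the heat shock proteins is 0.27 in control and 0.03 in salt arrays, and that of the photosynthesis and chlorophyll genes -0.37 and -0.43.

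Genes of photosynthesis and chlorophyll synthesis were lower in the agami and second-set controls. Of 27 tested genes, 11 were called lower and 1 higher, against 6.64% and 5.02% of all named genes, with a median of -0.37. The list was also lower in the salt arrays, where 14 were called lower and 1 higher, with a median of -0.43. Over all probe sets, 8.04% were called lower and 6.34% higher there. Between 8 and 11 were called lower when single control arrays were left out, and 10 with the first ir29-labelled set represented by its array deposited at 500.

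PORA, an enzyme of the light-dependent step of chlorophyll synthesis, was among the clearest of them. Its signal was 8836, 9439 and 10756 in m103 and 3479, 4081 and 4026 in agami. It was 11774, 13087 and 12529 in the first ir29-labelled set and 6975, 5018 and 4607 in the second. All 6 arrays of one side lay below all 6 of the other, and the difference was -1.26 ± 0.098 (limma adjusted p = 1.2e-05), of similar size in both pairs (-1.32 and -1.19). The salt arrays gave -0.85 (limma adjusted p = 0.00074).

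Other steps of the chlorophyll route were lower too. GluTR, which makes the first committed precursor and was not a member of that list, was 2075 ± 221 in m103 and 1172 ± 68.6 in agami, and 2292 ± 121 and 1167 ± 288 in the ir29-labelled sets (SD, n = 3). Its arrays lay apart on both sides, with a difference of -0.90 ± 0.10 (limma adjusted p = 0.00036). CHLH (-0.71 ± 0.092) and CHLD (-0.41 ± 0.096), subunits of the enzyme that inserts magnesium, were called lower, and so were CHLP (-0.51), which reduces the side chain of chlorophyll, and ALADH (-0.37), an enzyme of the shared tetrapyrrole route. The ALADH call ended when any 1 of 9 arrays was left out, and a second probe set of CHLH gave -0.05. Lls1, an enzyme of chlorophyll breakdown, was lower as well (-0.66 ± 0.15, limma adjusted p = 0.020).

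The light reactions and carbon fixation followed the same direction, with less even pairs. PSB28, a protein of photosystem II, was lower by -0.99 ± 0.16 (limma adjusted p = 0.0034). The chlorophyll-binding protein gene RCABP89 was 19742 ± 1762 in m103, 9851 ± 1492 in agami, 20601 ± 2184 in the first ir29-labelled set and 17335 ± 1719 in the second (SD, n = 3), a difference of -0.63 that lay mainly in the japonica pair (-1.01 against -0.25). The same was true of rbcS, the small subunit of Rubisco (-2.27 against -0.26). Other tested probe sets of rbcS gave -0.30 (-1.19 against 0.58) and -1.06 (-1.85 against -0.27). The rbcS call ended without any m103 array or agami replicate 2, and rcaA1, the activase of Rubisco, was lower by -0.63 ± 0.12 (limma adjusted p = 0.0082). PETE, the electron carrier plastocyanin, was called at -0.54, and this call ended when any 1 of 7 arrays was left out.

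PPDKB, a pyruvate orthophosphate dikinase, was the gene of this list called higher. Its signal was 1686, 1805 and 1729 in m103 and 3279, 4067 and 3920 in agami. It was 992, 984 and 1371 in the first ir29-labelled set and 3172, 3570 and 4651 in the second. Both sides lay apart, with a difference of 1.42 ± 0.14 (limma adjusted p = 9.3e-05), and the salt arrays gave 0.93 (limma adjusted p = 0.00034).

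The summed signal of all 28 genes of this leaf list on the array ran from 125753 to 140759 in the m103 controls and from 96448 to 97111 in agami, and from 122695 to 134115 in the first against 107339 to 125943 in the second ir29-labelled set. The share of green leaf tissue in the samples moves with such a sum, and its part in these and the other differences was not tested. In these bulk samples, fewer cells of a type and less RNA per cell cannot be told apart. The summed signal of 6 root genes was 5291 to 6117 in m103, 5363 to 7349 in agami, 7070 to 8392 in the first ir29-labelled set and 5393 to 5445 in the second. None of the 6 root or 7 seed genes tested was called (limma), and 1 of 5 pollen and anther genes, KIN1, was called higher.

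Beyond these lists, PRXIIE-2, a peroxiredoxin of the plastid, was 1255, 1031 and 1171 in m103 against 410, 298 and 350.1 in agami, and 1287, 960 and 663 in the first against 363, 448 and 517 in the second ir29-labelled set. All arrays of one side were below the other, with a difference of -1.37 ± 0.17 (limma adjusted p = 0.00059). LTD, which delivers light-harvesting proteins to the thylakoid in Arabidopsis (-1.10 ± 0.16), and CEST, a chloroplast protein named for stress tolerance (-0.96 ± 0.12), were lower in all 6 arrays. ICS, isochorismate synthase, gave -0.87 ± 0.15, and APRL1 gave -1.40 ± 0.20, with -1.43 and -0.25 in its other probe sets.

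Of 24 tested aquaporins, 4 were called lower and 1 higher, against 6.64% and 5.02% of all named genes, with a median of -0.17. Both pairs pointed the same way in 13 of the 24, near the 54.5% over all probe sets. Leaving out single arrays gave 3 to 5 lower. In the salt arrays 7 were called lower and 1 higher, against 8.04% and 6.34% of all probe sets there. PIP1-3, a channel of the plasma membrane, was 1032, 628 and 769 in m103, 437, 365 and 495 in agami, 876, 1073 and 845 in the first and 368, 605 and 288 in the second ir29-labelled set. All 6 arrays of one side were below all 6 of the other, though only just (difference -1.02 ± 0.18, limma adjusted p = 0.0044).

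PIP2-4, of the same family, was 1624 ± 286 in m103 and 674 ± 46.7 in agami, and 427 ± 55.1 and 241 ± 28.7 in the ir29-labelled sets (SD, n = 3). It was apart within each pair, with -1.01 ± 0.13 in control arrays (limma adjusted p = 0.0006) and -2.10 in salt arrays. TIP2-1, a channel of the vacuole membrane, differed mainly in the ir29-labelled pair, at 395 ± 25.8 against 60.1 ± 27.9, and its call ended with the first set by its array at 500 alone (limma adjusted p = 0.065). A second probe set of TIP2-1 gave -1.15 (limma adjusted p = 0.079). PIP2-5 was called lower (-0.70), a call that ended without any 1 of 8 arrays, and PIP2-7 was called higher (0.61 ± 0.14, limma adjusted p = 0.018).

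Among 29 genes for histones, DNA methylation and small RNAs, 7 were called higher and 2 lower, with a median of 0.10. The shares over all named genes were 5.02% and 6.64%. Of the higher genes, DCL2A and DCL4 cut double-stranded RNA, SHL2 and RDR2 copy RNA into double strands, and AGO2 and AGO4B bind the small RNAs. DNG701, a DNA glycosylase that removes methylated cytosine, was the other.

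DCL4 was 992 ± 115 in m103, 1365 ± 54.2 in agami, 1005 ± 92.0 in the first ir29-labelled set and 1350 ± 167 in the second (SD, n = 3), with all 6 arrays of one side above the other (0.44 ± 0.086, limma adjusted p = 0.0089). SHL2 (0.45), AGO2 (0.42), RDR2 (0.38), DNG701 (0.38) and AGO4B (0.38) lay close to it. DCL2A was higher by 0.91, mainly in the japonica pair (1.53 against 0.28). A second probe set of DCL2A gave 0.50 (limma adjusted p = 0.23), with 1.26 against -0.26. That of DNG701 gave 0.13 (limma adjusted p = 0.82). The lower genes were MET1-1, a DNA methyltransferase (-0.93 ± 0.24), and the histone H2B.10, which was 7962 ± 1306 in m103 and 1379 ± 169 in agami but 6812 ± 379.6 and 5919 ± 1375 in the ir29-labelled sets. Calls of AGO2, MET1-1 and H2B.10 ended when any 1 of 2 to 4 arrays was left out, and 0 to 2 of the list were then called lower. In the salt arrays, 3 of the 29 were called in each direction and the median was -0.04. These counts lie near the shares of all probe sets there, 6.34% higher and 8.04% lower.

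Of 49 homeobox genes, 7 were called higher and 2 lower, and of 42 genes for iron and zinc, 6 were higher and 2 lower. The shares over all named genes were 5.02% higher and 6.64% lower. HOX7 (0.84 ± 0.18, limma adjusted p = 0.015), Hox22 (0.68, a call that ended without any 1 of 8 arrays) and OSH1 (0.54 ± 0.13, limma adjusted p = 0.020) were the largest higher homeobox differences, and GL2-1, of the family that shapes the epidermis, was lower (-0.72). Another probe set of HOX7 gave 0.41 (limma adjusted p = 0.21), and another of OSH1 gave 0.34 (limma adjusted p = 0.042). The homeobox count was 3 or 4 without any 1 m103 array, agami replicate 2 or 3, first-set replicate 1 or 2, or second-set replicate 2. MTP3, of a family of metal transporters, gave 0.73 ± 0.16 (limma adjusted p = 0.013) in control arrays and -0.07 in salt arrays. The zinc transporters lay on opposite sides, with ZIP4 higher (0.64 ± 0.14) and ZIP3 (gene 4338051) lower (-0.73 ± 0.16). The count of higher iron and zinc genes was 3 without m103 replicate 1 or 3, agami replicate 2 or first-set replicate 1.

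Antioxidant enzymes gave 3 higher calls and none lower among 27 genes, against 5.02% and 6.64% of all named genes, and the list median was 0.04. Without agami replicate 1, 5 were called higher. APX5, an ascorbate peroxidase, was 684 ± 74.4 in m103 and 891 ± 42.1 in agami but 77.1 ± 3.15 in the first against 1106 ± 230.4 in the second ir29-labelled set (SD, n = 3). The first ir29-labelled set stood far below the other 3 groups. With that set represented by its array deposited at 500 alone, the call ended (limma adjusted p = 0.098). GSTU1, a glutathione transferase, was higher by 0.78 ± 0.14 (limma adjusted p = 0.0057), and PRX112, a peroxidase, by 0.62 ± 0.11 (limma adjusted p = 0.0062), but a second probe set of PRX112 gave -0.11 (limma adjusted p = 0.72).

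Of 7 LEA proteins and dehydrins, which protect drying cells, EM alone was called, and it was lower (-1.58 ± 0.35, limma adjusted p = 0.017). Of 26 chitinases, germins and defence proteins, 1 was higher and 3 lower, Cht1 among them (-1.20, a call that ended without any 1 of 8 arrays). Of 75 genes for abscisic acid synthesis and signalling, 4 were higher and 5 lower, against 5.02% and 6.64% of all named genes. Leaving out single arrays gave 0 to 4 higher and 2 to 7 lower, with 0 higher without agami replicate 2, 1 without m103 replicate 2 and 7 lower without agami replicate 1. No gene was called by limma among 7 metallothioneins, 10 genes for compatible solutes and polyamines, 13 for gibberellin or 14 ABC transporters.

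Several genes with large differences differed unequally between the pairs. TRS130, named after a subunit of a vesicle tethering complex in yeast, was 744 ± 37.2 in m103 against 3359 ± 280.0 in agami, while the ir29-labelled sets were at 2444 ± 231 and 2669 ± 56.6 (SD, n = 3). HCT3, a hydroxycinnamoyltransferase, was 893 ± 77.2 in the first ir29-labelled set and 106 ± 13.6 in the second, with 157 ± 14.8 and 94.2 ± 5.23 in the japonica cultivars. Both HCT3 pairs were called (-2.90 and -0.65), and another probe set gave -2.83 and -1.55. The TRS130 call ended without any m103 array, or without agami replicate 2 or 3. C3H40, a CCCH zinc finger gene, was 2951 to 3895 in agami and at most 49.9 in the other 3 groups, and its call ended when any 1 of 8 arrays was left out. RPL18, a ribosomal protein (-1.63 against -0.22), leaned to the japonica pair, and CSLF6, which makes mixed-linkage glucan of the wall (-0.45 against -1.22), to the ir29-labelled pair. The other genes among the 15 largest higher differences were Rcb4 (1.21, with first-set signals of 8.4 to 48.8), BAT1 (0.82) and CP1 (gene 4327535, 0.80). The call of BAT1, an amino acid transporter in Arabidopsis, ended without any 1 of 8 arrays. Other probe sets of BAT1 gave 0.56, 0.49 and 0.52, and none was called (limma adjusted p = 0.094, 0.14 and 0.11).

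Some probe sets without a gene name had a bright side and a dim one. Os.4960.1.S1_at (gene 4327323) was 7010, 7442 and 6954 in m103 and 674, 434 and 504 in agami. It was 8345, 8306 and 6487 in the first ir29-labelled set and 344, 411 and 379 in the second. No array came near the other side, and the difference was -4.00 ± 0.13 (limma adjusted p = 2.4e-09). The brightest probe set of the same gene, in contrast, gave -0.39. Another gave 0.82 (limma adjusted p = 0.49), with -1.39 in the japonica and 3.03 in the ir29-labelled pair. The cause of these unlike values was not tested.

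In 5 others the dim side included arrays near or below the signal of 27.9 at which probe sets were left out, so they entered through their bright side and no size of the difference is given. Os.55085.1.S1_at ran from 1014 to 1288 in m103 and from 3314 to 3904 in the first ir29-labelled set but was at most 83.7 in agami and 4.40 in the second. Os.27723.1.S1_a_at was on the same side, at 593 or more in those groups and at most 66.5 in the others. Os.7822.1.S1_at was 691 to 748 in agami and 696 to 767 in the second ir29-labelled set but at most 22.3 in m103 and 84.5 in the first.

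Os.52409.1.S1_at (gene 4348060) and Os.38301.1.S1_a_at (gene 4338062) were likewise bright in agami and the second set, at 932 or more and 715 or more, and at most 97.0 and 83.2 in the other groups. A brighter probe set of gene 4348060 gave -0.10, and the brightest of gene 4338062 gave 2.08. All 6 probe sets were called in the same direction in the salt arrays. The salt arrays sample the same cultivars and also entered the mean by which dim probe sets were left out. Nothing is therefore read from this repeat.

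Over all 34355 probe sets tested, 3134 (9.12%) were called, 1592 higher (4.63%) and 1542 lower (4.49%). Higher calls were 50.8% of them, and 64.5% with each array centred on its median. At least a 2-fold difference was seen in 793, of which 370 were higher. Both pairs pointed the same way in 54.5% of all probe sets. Agami against m103 alone gave calls in 10.6% of probe sets and the second against the first ir29-labelled set in 12.3%.

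Called separately in both pairs were 576 in the same direction (1.68%) and 286 in opposite directions (0.832%), so that 66.8% of such probe sets went the same way. With at least a 2-fold difference in both pairs, 138 went the same way and 101 the opposite way. LIR1, a light-regulated gene chosen as an example after its values were seen, was -1.06 in the japonica pair and 1.36 in the ir29-labelled pair. The size differed between the pairs (interaction in limma) in 769 of the 3134, against 10.4% of all probe sets.

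**Figure D3:**
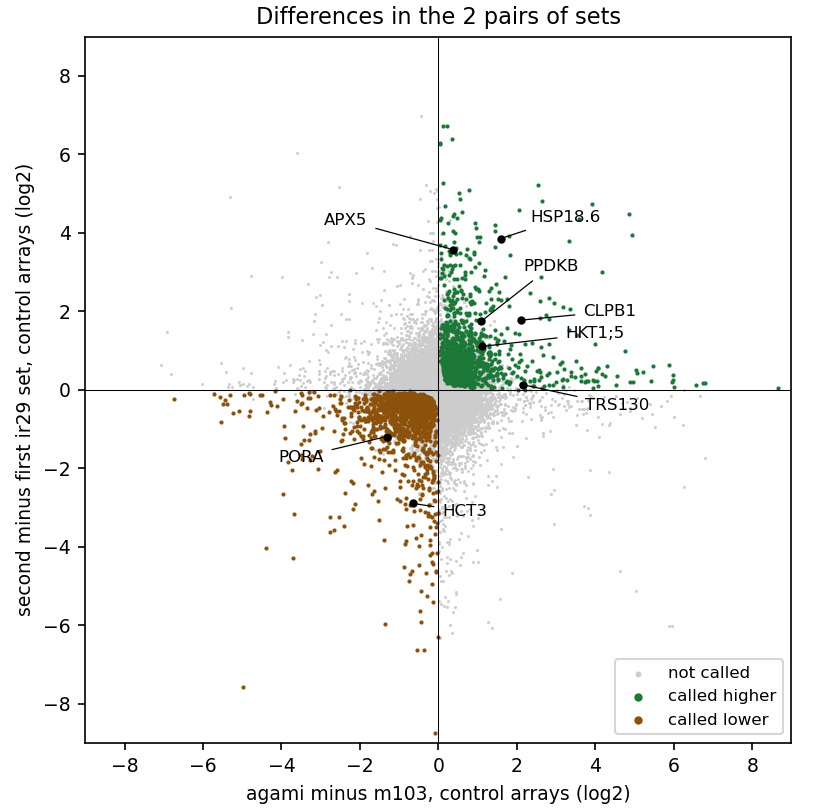
Log2 difference of agami minus m103 (horizontal) against second minus first ir29-labelled set (vertical) in the control arrays for every probe set tested; green and brown points were called higher or lower, grey points were not called. HKT1;5, PORA, CLPB1 and PPDKB lie near the diagonal, whereas TRS130 and APX5 lie near an axis, with 1 pair called, and HCT3 lies further along the vertical axis (-2.90) than the horizontal one (-0.65).

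Over the 12 control arrays, principal component 1 carried 46.1% of the variance and set japonica against the ir29-labelled arrays. Component 2 (13.9%) parted the sides compared here, with m103 and first-set arrays between 37.2 and 53.1 and agami and second-set arrays between -53.6 and -32.4. Component 3 carried nearly as much (12.6%) and grouped the sets the other way, with m103 (43.3 to 47.1) and the second set (31.5 to 39.2) against agami (-51.2 to -28.0) and the first set (-44.1 to -33.6). The first-set array that was deposited at 500 lay with its own set. All 6 arrays of one side lay beyond all 6 of the other in 954 of the 3134 calls (30.4%). Over all probe sets tested this held for 1043 (3.04%). No overlap within either pair was seen in 1858 calls (59.3%), against 2265 of all probe sets tested (6.59%). The calls rest on the same arrays, so nothing is read from these shares.

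**Figure D4:**
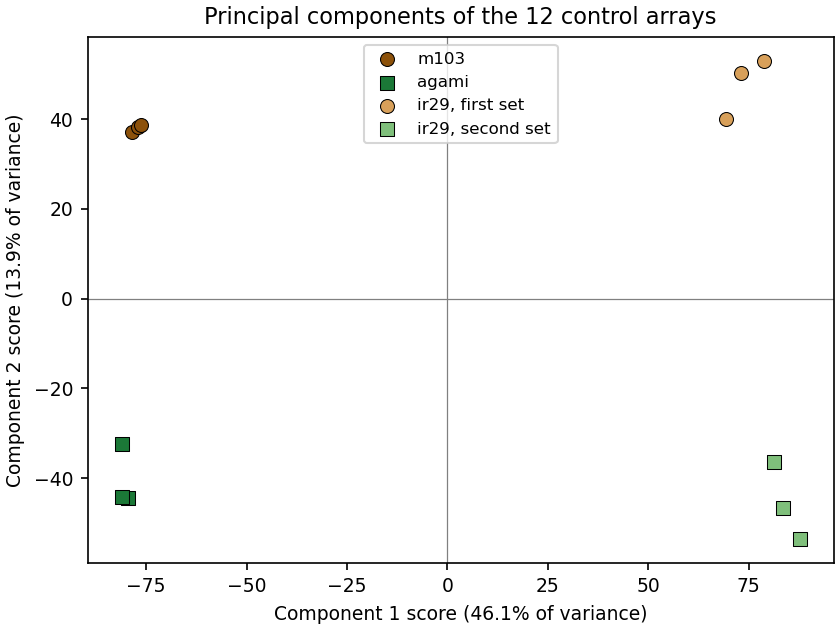
Scores of the 12 control arrays on the first 2 principal components; circles are m103 and the first ir29-labelled set, squares agami and the second set. Component 1 separates the ir29-labelled from the japonica arrays and component 2 the circles from the squares.

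The salt arrays of the same sets gave 4941 calls (14.4%). Of the 3134 control calls, 2775 (88.5%) had the same direction there, 1350 were called again and 21 were called in the opposite direction. The shared calls were 43.1% of the control calls and 27.3% of the salt calls. Among the 8 salt arrays that had been deposited at 500, 1 from m103 and 1 from the first ir29-labelled set, 86.4% of the control calls had the same direction, and 24 of the 30 named genes with the largest differences did. The matching shares over all probe sets tested are not given here. The salt arrays sample the same cultivars, so no new cultivars are added.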

How the data were processed

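Total RNA of crown and growing point tissue was hybridised to Affymetrix rice arrays. The authors deposited linear intensities for 57381 probe sets, and the submitters' processing notes name GCOS 1.2; the sources used here give no algorithm. Each array was multiplied to a trimmed mean of 500 (2% left out at each end), and log2(scaled signal + 16) was taken, which understates differences at low signal. After removal of 123 control probe sets, those whose mean log2 value over 24 arrays passed the 40th percentile (scaled signal about 27.9) were tested, 34355 in all. No detection calls were used.

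The 12 control arrays were fitted with limma 3.58.1 (R 4.3.3; lmFit, and eBayes with intensity trend) with subspecies as a block and Benjamini-Hochberg adjustment over all probe sets. A fit of 4 group means gave each pair and the interaction. The 12 salt arrays were fitted like the control arrays, and 8 group means on 24 arrays gave the control minus salt contrast, added after the data were seen. With 3 arrays per group, their number limits the precision. The fits were tested on simulated data.

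The platform annotation gave 1 gene for 22436 probe sets, and RefSeq (ASM3414082v1) gave 2458 genes an informative name, often a synonym. The brightest probe set stood for each gene. Named were the 15 largest called differences in each direction with arrays apart in both pairs, up to 4 called genes per list with other called members where a list is described, and 3 unnamed probe sets in each direction. Members and the 44 gene lists were chosen with earlier results of these data known. Figures were drawn with matplotlib 3.10.9. Alternatives covered scaling, pseudocount, filter, trend, model, replicate number and single arrays.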

Additional observations from a re-analysis of the deposited data

Results flagged for a closer look

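The difference itself was unequal in the japonica and the ir29-labelled pair for 11 of the 30 named genes with the largest differences, by the interaction in limma (second minus first ir29-labelled set, minus agami minus m103, adjusted p under 0.05). It was larger in the ir29-labelled pair for the heat shock genes HSP18.0 (3.57), HSP18.6 (2.27) and HSP17.9A (1.47) and for APX5 (3.19). Another probe set of HSP18.0 went the other way, with -3.08 in the ir29-labelled and 0.72 in the japonica pair. Among lower genes the ir29-labelled pair differed more for HCT3 (-2.25), TIP2-1 (-1.93), PSB28 (-0.89) and CSLF6 (-0.77). The japonica pair differed more for TRS130 (-2.02), RPL18 (1.42) and LTD (0.91).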

How the results depend on the processing

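Of the 3134 control calls, 1592 were higher and 1542 lower. The deposited scale mattered most: on the values as deposited, 32543 probe sets were called, 32530 higher and 13 lower, with 21310 called in both pairs, 563 interactions and 23936 salt calls. All probe sets then had a median difference of 1.83, and CCC1 relative to it turned to 0.057. With the first ir29-labelled set represented by its array at 500 alone, 1706 were called (808 higher, 898 lower; 1471 shared with the reported calls), 249 in both pairs, with 2242 interactions, on fewer arrays. The 8 salt arrays at 500 gave 1696 calls. Without the intensity trend 1787 were called (900 higher, 887 lower), 380 in both pairs, and with 8 group means on 24 arrays 5033 (2599 higher, 2434 lower). Median centring gave 1598 higher and 880 lower. Other scalings, pseudocounts, filters and 4 group means gave 2252 to 4649 calls. Leaving out 1 array gave 1922 to 3010 calls (962 to 1533 higher, 958 to 1498 lower), 361 to 709 in both pairs, 2887 to 4062 interactions and 3696 to 4737 salt calls. The lowest counts were 1922 without first-set replicate 1, 1965 without agami replicate 2 and, in both pairs, 361 without agami replicate 2. With the replicate number as a block, 2425 were called, 2329 of them shared. Deviations of same-numbered arrays correlated from -0.07 to 0.22 over 18 pairs (median 0.041, 4 over 0.1), against a median of -0.023 over 36 pairs of different number (1 over 0.1). Not every pair passed 0.1, and the main fit did not take the numbers as pairing the samples. Yet on principal component 4 (5.06% of the variance) replicate 1 had the lowest score in every set. Its scores were -25.3 in m103, -53.7 in agami, and -30.9 and -19.1 in the first and second ir29-labelled sets. The main fit does not model such an effect, and its cause was not tested. Of 75 named genes and probe sets, 16 lost their call when some 1 array was left out, 23 with the first set by its array at 500 alone, 15 without the trend, 9 without a filter and 7 with the block. Apart from CCC1 none turned its direction in these alternatives. An alternative without the arrays off 500 was not run, since m103 would keep none. The cause of these shifts was not tested. Signals near background limit dim probe sets.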
